A study of Mus musculus with 232 samples.

Results

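Sub1, Slfn9, Syne2 and Slc39a1 are 4 genes that an earlier comparison of Dgcr8-/- with WT mouse embryonic stem cells (ESCs) had listed among its smallest p-values. They were followed here cell by cell to see whether the difference from WT held in all Dgcr8-/- cells and whether a miR-294 or a let-7 mimic moved it. The 4 were chosen from 42493 gene IDs in the tables, of which 23587 had a count in any cell and 11186 averaged 5 or more counts over all cell libraries, and 4 of the 4 passed this filter. Because the contrast of Dgcr8-/- with WT chose these genes, its values are given as a description.

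Single cells of 4 conditions were captured on a microfluidic C1 chip and sequenced. WT cells (titled V6.5, the parental line) had the genotype wild type. Dgcr8-/- cells lacked functional Dgcr8 and were mock transfected. Cells labelled miR-294 or let-7 were Dgcr8-/- as well and had received a mimic of that miRNA 24 h before capture, so that the mock, miR-294 and let-7 conditions share the Dgcr8 deletion. The sample labels do not say whether the WT cells were mock transfected, so genotype and transfection cannot be told apart in comparisons with WT. All cells were grown with serum, LIF and 2 inhibitors of MEK and GSK3 (2i), which hold ESCs in the naive pluripotent state. One chip was used for each condition, so chip and condition cannot be told apart, and each condition counts as 1 sample. No test between conditions was therefore run, and the spread given below is the spread over cells. The authors had removed capture sites with several or dead cells and mimic-treated cells without lowered targets of the mimic.

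Dgcr8 is the RNA-binding partner of the nuclease Drosha in the microprocessor, which cuts primary miRNA transcripts into hairpins, and cells without it lack nearly all miRNAs. A mimic puts 1 mature miRNA back. The miR-294 family is the main miRNA family of ESCs and is associated with self-renewal, whereas let-7 accumulates as cells differentiate. A miRNA recognises its targets mostly through its seed, bases 2 to 8, pairing with the 3′ UTR of an mRNA. The mimics are shown first because the seed decides which matches can be looked for in the 4 genes. The sequences are the mature mouse miRNAs of RefSeq (GRCm38.p6), with the seed in capitals. The let-7 mimic is called let-7i in the sample titles, let-7b in the series description and let-7c by the study, and these 3 have the same seed.
mmu-miR-294-3p: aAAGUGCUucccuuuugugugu
mmu-let-7b-5p: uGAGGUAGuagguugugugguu
mmu-let-7c-5p: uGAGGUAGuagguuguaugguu
mmu-let-7i-5p: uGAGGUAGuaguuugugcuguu
The mature miR-294 sequence lies at chr7:3220691-3220712 on the plus strand.

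The tables comprised 232 runs of 182 cell libraries, and 50 cells had been sequenced in 2 runs, which were summed. In 4 pairs of libraries titled as different cells (3 in let-7, 1 in miR-294), the counts were as alike as those of 2 runs of a cell, with a chi-square per gene between 1.84 and 5.61 against 1.25 to 6.25 for 48 cells with 2 runs, and with Pearson's r of at least 0.986, where the next pair had 0.715. Each pair was counted as 1 cell, which left 16 WT, 60 Dgcr8-/-, 57 miR-294 and 45 let-7 cells. In 2 further cells, 1 WT and 1 let-7, the runs differed as different cells do. Library totals ran from 513521 to 3979274 counts, with medians of 1307481 in WT, 1574732 in Dgcr8-/-, 1435140 in miR-294 and 1524918 in let-7. The 10 ESC markers were detected in each condition, and their summed normalized count had a median of 7736 in WT, 9356 in Dgcr8-/-, 9385 in miR-294 and 6361 in let-7 cells. Of these markers, Nanog alone passed 2-fold after let-7 against mock-transfected cells, at a log2 ratio of -1.50. Utf1 alone did so after miR-294, at 1.3, and Pou5f1 and Utf1 were at 1.39 and 1.45 in Dgcr8-/- against WT cells. The study, by its own test, reported no significant change of Nanog or Pou5f1 across the conditions. Of 8 fibroblast markers, 6 were at 0 in all WT cells and 5, 4 and 5 in all Dgcr8-/-, miR-294 and let-7 cells, and the median cell had a sum of 0 for fibroblast and for primitive endoderm markers in each condition. Single cells reached primitive endoderm sums of 166 in Dgcr8-/-, 201 in miR-294 and 459 in let-7 cells, against 0 in WT. The highest fibroblast sums were 3.43 in WT, 23.1 in Dgcr8-/-, 32.4 in miR-294 and 350 in let-7 cells. Gata4 had a log2 ratio to WT of 1.91 in Dgcr8-/-, 2.24 in miR-294 and 3.58 in let-7 cells. The summed trophoblast markers ranged from 5.56 to 409 in WT and from 0 to 327 in Dgcr8-/- cells, with medians of 43.5 in WT, 6.29 in Dgcr8-/-, 6.87 in miR-294 and 6.29 in let-7 cells, and of these markers Eomes and Elf5 were at least 2-fold lower in Dgcr8-/- than in WT cells (-1.90 and -1.13). The part of these markers in the results below was not tested. Gene-level Dgcr8 counts do not check the genotype, as they include any exons outside the deletion. Its mean normalized count was 118 in WT, 51.5 in Dgcr8-/-, 67.6 in miR-294 and 41.2 in let-7 cells.

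Sub1 encodes the coactivator PC4, a small protein that binds single-stranded DNA and helps general transcription factors start transcription by RNA polymerase II. It lies at chr15:11981339-11996983 on the minus strand (GRCm38). In WT cells its normalized count, the count divided by the cell's size factor, ran from 318 over a median of 641 to 1647. In Dgcr8-/- cells the lowest, median and highest values were 21.1, 194 and 835. After miR-294 they were 68.9, 328 and 887, and after let-7 37.1, 216 and 562. The means were 763 ± 367 (SD, n = 16 cells) in WT, 216 ± 150 (n = 60) in Dgcr8-/-, 338 ± 164 (n = 57) in miR-294 and 238 ± 124 (n = 45) in let-7 cells. The WT cells thus held the highest levels, and the ranges of all conditions overlapped. Between 318 and 1647, the range of WT, lay 10 of 60 Dgcr8-/-, 29 of 57 miR-294 and 12 of 45 let-7 cells.

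Against WT, the log2 ratio of mean Sub1 counts (with a pseudocount of 1, as in all log2 ratios below) was -1.81 in Dgcr8-/-, -1.17 in miR-294 and -1.68 in let-7 cells. A WT cell taken at random was above a Dgcr8-/- cell in a share of 0.964 of pairs (the area under the curve, AUC), above a miR-294 cell in 0.911 and above a let-7 cell in 0.971. Against mock-transfected Dgcr8-/- cells, which both mimic comparisons share, Sub1 was 0.64 higher on the log2 scale after miR-294 and 0.14 higher after let-7. Both were smaller than the spread over cells, a pooled SD of 0.88 and 0.91 on the log2 scale. The order of the means was WT, miR-294, let-7 and Dgcr8-/-, of which let-7 and Dgcr8-/- were the closest neighbours. The miR-294 mean lay between those of Dgcr8-/- and WT, and about as many miR-294 cells lay inside the WT range as outside it. The lower end of that range was a single WT cell at 318, and the next WT cell was at 417. That is above the miR-294 median of 328, so the share of cells inside the range depended on 1 WT cell.

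Syne2 encodes nesprin-2, a very large protein of the outer nuclear membrane that ties the nucleus to the actin cytoskeleton through SUN proteins of the inner membrane. It lies at chr12:75818134-76110926 on the plus strand. In WT, 5 of 16 cells had a Syne2 count, the median was 0 and the highest cell had 16.02. The WT cells together held 30 counts (exact 95% Poisson interval 20.2 to 42.8, which like all intervals here covers counting error only, as reads were not tagged by molecule). In Dgcr8-/- cells the normalized count ran from 0 over 228 to 1338, in miR-294 cells from 0 over 82.8 to 725 and in let-7 cells from 0 over 353 to 1612. A count was seen in 59 of 60 Dgcr8-/-, 53 of 57 miR-294 and 44 of 45 let-7 cells, and after all cells had been thinned to 500000 counts still in 58, 52 and 43 of these, against 4 of 16 in WT. The cells without a count were few in each knockout condition and were not the shallowest. At the same thinned depth, Syne2 was thus missing from most WT cells and seen in nearly all cells of the 3 knockout conditions.

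The means of Syne2 were 1.87 ± 4.22 (SD, n = 16 cells) in WT, 312 ± 272 (n = 60) in Dgcr8-/-, 137 ± 165 (n = 57) in miR-294 and 425 ± 352 (n = 45) in let-7 cells. Against WT, the log2 ratio was 6.77 in Dgcr8-/-, 5.59 in miR-294 and 7.21 in let-7 cells, with an AUC of 0.981, 0.938 and 0.976. The WT mean leaned on 1 cell, and without it the WT mean was 0.923 and the ratio of Dgcr8-/- to WT 7.34. Inside the WT range lay 4 of 60 Dgcr8-/-, 13 of 57 miR-294 and 3 of 45 let-7 cells. The upper end of that range was 1 WT cell at 16.02, and the next WT cell was at 5.85. Against the shared mock-transfected cells, Syne2 was lower after miR-294 by a log2 ratio of -1.18 and higher after let-7 by 0.45, where the pooled SD over cells was 2.24 and 2.14. Between the mimics, which do not share these controls, let-7 cells stood 1.63 above miR-294 cells on the log2 scale, with an AUC of 0.785 and a pooled SD of 2.34. Hence the order was let-7, Dgcr8-/-, miR-294 and WT, each neighbour among the knockout conditions differed by less than the spread over cells, and the miR-294 mean remained 73.2-fold that of WT.

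Slc39a1 encodes ZIP1, a zinc transporter that brings zinc into the cytosol across the plasma membrane. It lies at chr3:90248172-90253612 on the plus strand. Its normalized count ran from 4.53 over a median of 17.4 to 57.2 in WT cells, and from 16.4 over 123 to 1013 in Dgcr8-/- cells. After miR-294 the lowest, median and highest values were 22.1, 84.5 and 362, and after let-7 they were 7.70, 194 and 639. All cells of all conditions had a count. The means were 23.4 ± 17.2 (SD, n = 16 cells) in WT, 154 ± 140 (n = 60) in Dgcr8-/-, 99.0 ± 58.9 (n = 57) in miR-294 and 217 ± 124 (n = 45) in let-7 cells. The medians of the 3 knockout conditions were thus above the highest WT cell.

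The log2 ratio of Slc39a1 to WT was 2.67 in Dgcr8-/-, 2.04 in miR-294 and 3.16 in let-7 cells, with an AUC of 0.967, 0.956 and 0.974. Inside the WT range lay 8 of 60, 13 of 57 and 2 of 45 cells. Against the shared mock-transfected cells, the ratio was -0.63 after miR-294 and 0.49 after let-7, below the pooled SD over cells of 0.92 and 1.03. Let-7 cells were above miR-294 cells by 1.12 on the log2 scale, with an AUC of 0.827, where the pooled SD was 0.94. The difference was above that spread with size factors, on which alone the spread was computed. It was below the same 0.94 with library size (0.82), TMM factors (0.88), summed counts (0.85), thinned cells (0.77) and FPKM (0.80), and it was 0.66 relative to the median gene. The spread over cells under those other settings was not computed. The order of the 4 conditions was that of Syne2.

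Slfn9 belongs to the schlafen family, genes studied mostly in immune cells and growth control. It lies at chr11:82978390-82991830 on the minus strand. Its values went against its description as a marker of the genotype. In WT cells the normalized count ran from 0 over a median of 4.02 to 769, and the 2 highest cells, with 769 and 323, were followed by one with 38.9. These 2 cells held 91.6% of the summed normalized WT count, from 571 and 274 counts. The WT mean was 74.5 ± 201 (SD, n = 16) with and 7.14 ± 10.5 (n = 14) without them. In Dgcr8-/- cells the median was 2.47 and the highest value 42.3, in miR-294 cells 1.07 and 19.5, and in let-7 cells 5.52 and 21.3, each with cells at 0. The means were 5.29 ± 8.27 (n = 60), 2.11 ± 3.36 (n = 57) and 6.79 ± 5.70 (n = 45).

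Every knockout cell lay inside the WT range of Slfn9. The log2 ratio of Dgcr8-/- to WT was -3.59 between means, -0.53 between medians and -0.37 without the 2 WT cells, and a WT cell was above a Dgcr8-/- cell in 0.642 of pairs. For let-7 against WT, the ratio was -3.28 between means, 0.38 between medians and -0.06 without the 2 cells. Counts were low, with a Slfn9 count in 15 of 16 WT, 50 of 60 Dgcr8-/-, 39 of 57 miR-294 and 41 of 45 let-7 cells, and in 11, 35, 25 and 36 of these after thinning. Between the mimics, let-7 cells had the higher mean by 1.32 on the log2 scale, with an AUC of 0.797. In the same 2 WT cells, Sub1 was 520 and 318, Syne2 0 in both, and Slc39a1 20.2 and 15.3. The Sub1 value of 318 was the lowest among WT cells, with the next at 417. The WT cell second highest in Slfn9 was thus also the cell that set the lower end of the Sub1 range.

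**Figure D1:**
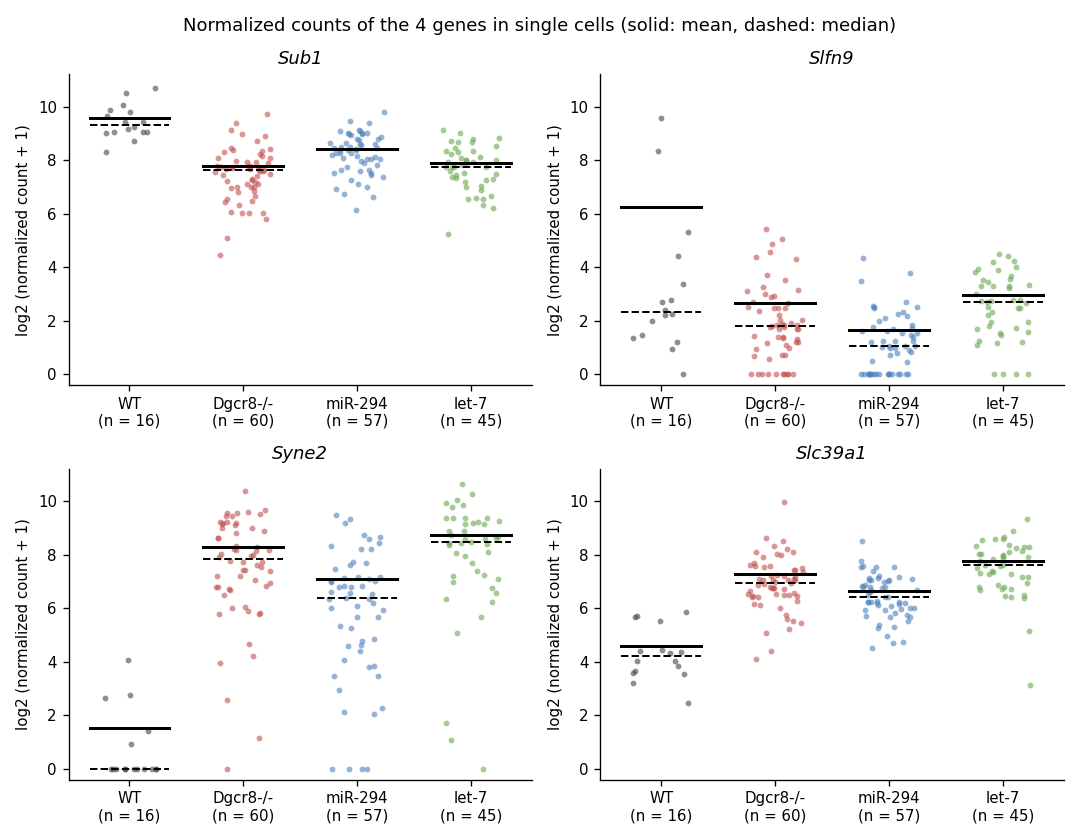
Each point is a cell, by condition, and the y axis gives log2 of the normalized count + 1 for Sub1, Slfn9, Syne2 and Slc39a1, with the mean as a solid and the median as a dashed line. WT cells are high in Sub1 and low in Syne2 and Slc39a1, whereas in Slfn9 the WT mean of 74.5 stands far above the median of 4.02 because of 2 cells.

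Over all genes past the filter, 30.2% had a mean at least 2-fold higher and 8.73% at least 2-fold lower in Dgcr8-/- than in WT cells. Syne2 and Slc39a1 were among the first and Sub1 and Slfn9 among the second. Far fewer genes separated the cells themselves: an AUC of at least 0.9 was reached by 0.572% of genes for Dgcr8-/- above WT and by 0.0805% for WT above Dgcr8-/-, and Syne2, Slc39a1 and Sub1 were among these, as the genes had been picked for this contrast. Against WT, such an AUC was reached by 0.241% of genes above and 0.0626% below in miR-294 cells and by 1.21% above and 0.295% below in let-7 cells, and Syne2 and Slc39a1 above and Sub1 below were among these in both. At most 25% of cells lay inside the WT range for 0.277% of genes in Dgcr8-/-, 0.107% in miR-294 and 0.867% in let-7 cells, and Syne2 and Slc39a1 were among these in the 3 conditions. Sub1 was so in Dgcr8-/- cells alone, with 16.7%, against 50.9% of miR-294 and 26.7% of let-7 cells.

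In miR-294 against WT, 21.6% of genes were at least 2-fold higher and 12.2% at least 2-fold lower, and in let-7 against WT 37.3% and 9.85%. Syne2 and Slc39a1 were at least 2-fold higher and Sub1 and Slfn9 at least 2-fold lower in both, a description as well, since these comparisons use the WT cells on which the genes were chosen, and since Slfn9 rests on 2 of those cells. In miR-294 against mock-transfected Dgcr8-/- cells, 0 of 4 members were at least 2-fold higher, where 4.9% of all genes were, and Slfn9 and Syne2 were at least 2-fold lower, where 18.7% of all genes were. Both were close to the 2-fold line, and 0 of 4 members were past it with scaling by library size (-0.76 for Slfn9 and -0.994 for Syne2), in cells thinned to 500000 counts (-0.48 and -0.997) or in FPKM (-0.35 and -0.82). With TMM factors, Slfn9 was at -0.88 and Syne2 at -1.05. In let-7 against mock-transfected cells, 0 of 4 passed 2-fold in either direction, against 17.5% higher and 8.45% lower among all genes. In let-7 against miR-294, Slfn9, Syne2 and Slc39a1, 3 of 4 members, were at least 2-fold higher, where 31.2% of genes were, and 0 of 4 at least 2-fold lower, where 6.89% were. Of these, Slc39a1 was short of 2-fold with library size and with TMM factors, Slfn9 was at 1.00 with library size and 1.10 with TMM factors, and in thinned cells or FPKM Syne2 alone was past 2-fold, at 1.35 and 1.08. Mean FPKM of Slfn9 was 0.751 in Dgcr8-/-, 0.37 in miR-294 and 1.02 in let-7 cells, so the pseudocount of 1 pulled its FPKM ratios toward 0. With a pseudocount of 0.1 on size-factor counts, Slfn9 was at -1.28 for miR-294 against Dgcr8-/- and at 1.64 for let-7 against miR-294.

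The median over all genes was itself off 0, at 0.35 for Dgcr8-/- against WT, -0.26 for miR-294 and 0.17 for let-7 against Dgcr8-/-, and 0.46 for let-7 against miR-294. With scaling by library size, these medians were 0.14, -0.07, 0.10 and 0.19. Among genes past 2-fold, the share of higher ones was 20.8% with size factors and 31.95% with library size for miR-294 against Dgcr8-/-, 79.1% and 68.6% for let-7 against WT, and 81.9% and 69.8% for let-7 against miR-294. Relative to the median gene, Sub1 was 0.90 higher after miR-294 than in mock-transfected cells and 0.03 lower after let-7 (-0.03 with size factors, -0.01 with library size). By the same measure, Syne2 was at -0.92 after miR-294 and 0.27 after let-7, and Slc39a1 at -0.37 and 0.32. Neither scaling changed a sign of these values.

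**Figure D2:**
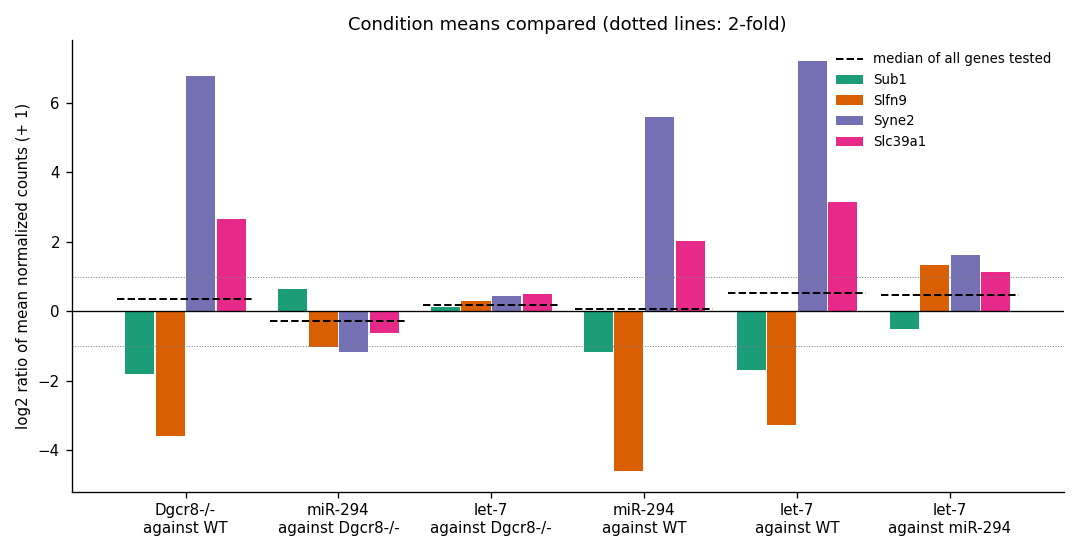
Bars give the log2 ratio of mean normalized counts (pseudocount 1) of the 4 genes in 6 comparisons of conditions, dashed lines the median of all genes tested and dotted lines 2-fold. The 3 comparisons with WT have the longest bars, from -4.60 for Slfn9 in miR-294 to 7.21 for Syne2 in let-7, and the comparisons of mimics with Dgcr8-/- run from -1.18 to 0.64.

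No Dgcr8-/- cell was inside the WT range in Sub1, Syne2 and Slc39a1 at once, and 39 of 60 (65%, exact 95% binomial interval 51.6 to 76.9%) were outside it in all 3. Since these genes had been picked for differing from these WT cells, such joint counts were likely in advance and are a description. Slfn9, with every knockout cell inside its WT range, was left out, and joint counts of other genes were not computed. Of let-7 cells, 30 of 45 (66.7%, 51.05 to 80%) were outside in all 3 and 0 inside in all 3. Among miR-294 cells, 17 of 57 (29.8%, 18.4 to 43.4%) were outside in all 3, 27 were inside in 1 gene, 11 in 2 and 2 in 3. In those 2 cells, Sub1 was 329 and 374, Syne2 13.2 and 3.81 and Slc39a1 50.8 and 40.7, and their Sub1 values lay near the lowest WT cell at 318. Both Sub1 values were below the next WT cell, at 417. The Syne2 value of 13.2 was inside the range only through the highest WT cell at 16.02, as the next was at 5.85. Within a condition, the members varied nearly apart from each other. Spearman's rho between 2 members, over cells that share a chip and a depth scale, lay between -0.22 and 0.34 in the 4 conditions. The members' correlation with the total count of a cell ran from -0.35 to 0.27.

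**Figure D3:**
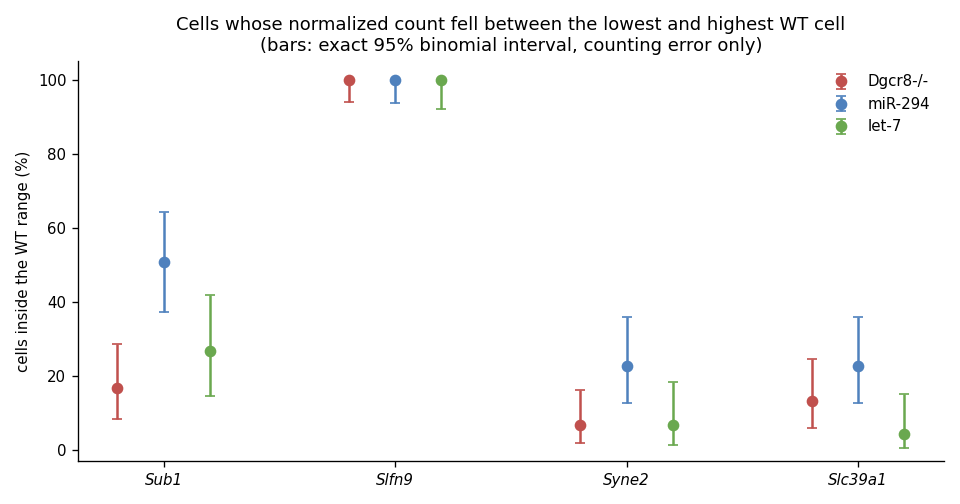
For each gene, points give the percentage of Dgcr8-/- (n = 60), miR-294 (n = 57) and let-7 (n = 45) cells between the lowest and the highest WT cell, with exact 95% binomial intervals. In Sub1 the miR-294 cells are at 50.9% against 16.7% of Dgcr8-/- cells, and in Slfn9 all conditions are at 100%. The lower end of the Sub1 range is a single WT cell at 318, with the next at 417.

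The seed matches of the mimics were looked for in the longest annotated 3′ UTR of each gene (Gencode M21, sense strand), as the letters AGCACTT for miR-294 and CTACCTC for let-7, which do not overlap each other. Sub1 held 1 let-7 match, at position 2412 of a 3′ UTR of 2879 bases (chr15:11981789-11981817, minus strand), shown here with the match in capitals.
Sub1 3′ UTR, let-7 match: cttgagaaataCTACCTCcttacctagtc
Of 2994 tested genes with a 3′ UTR within 1.5-fold of that length, 17.9% held this match and 30.1% the miR-294 match. No other match was found in the 4 genes, whose 3′ UTRs had 2879 bases in Sub1, 2786 in Slfn9, 1406 in Syne2 and 1270 in Slc39a1. Among tested genes of like 3′ UTR length, 29.44% for Slfn9, 16.66% for Syne2 and 15.28% for Slc39a1 held the miR-294 match. The let-7 match was held by at most 17.58% of such genes, so most of them lacked each match as well. For Syne2, the longest 3′ UTR belonged to the coding transcript of 3606 bases. That of the transcript of 21690 bases was not searched separately. The length that count and FPKM together imply for Sub1 had a median of 688 bases in WT, 700 in Dgcr8-/-, 726 in miR-294 and 694 in let-7 runs. That is closer to the short coding transcript of 675 bases than to the transcript with the match, which has 3372. An implied length falls short of its transcript, as with Slc39a1, at a median of 2236 in Dgcr8-/- runs for 2364 bases. Single Sub1 runs reached 1325 bases in Dgcr8-/-, 1391 in miR-294 and 1606 in let-7 cells. The values therefore do not show that the transcript with the match was absent.

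For Syne2 the same implied length, averaged over the runs of a cell, differed widely from cell to cell. Runs of the same cell also differed in places, with 14121 and 4021 bases in 1 Dgcr8-/- cell and 8809 and 3036 in 1 miR-294 cell. Elsewhere they were alike, as with 16906 and 16147 bases in another Dgcr8-/- cell. How much of the spread over cells came from the estimate itself was not tested. The gene has annotated coding transcripts of 21690 bases and of 7335, 5789 and 3606 bases, among others. Over cells with at least 10 counts in a run, the implied length ran from 1299 to about the full length in 57 Dgcr8-/- cells, with a median of 5393. The median was 4143 in 48 miR-294 cells and 5736 in 42 let-7 cells. A length of at least 10000 bases was implied in 15 Dgcr8-/- (26.3%, exact 95% binomial interval 15.5 to 39.7%), 8 miR-294 (16.7%, 7.48 to 30.2%) and 12 let-7 cells (28.6%, 15.7 to 44.6%), and the intervals overlapped. In WT, 1 cell reached 10 counts, with an implied length of 1278 bases. The 3 knockout conditions each held cells with implied lengths near the short and others with lengths near the full-length transcripts. In Slc39a1, with 1 annotated transcript of 2364 bases, the implied length stayed between 2169 and 2331.

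**Figure D4:**
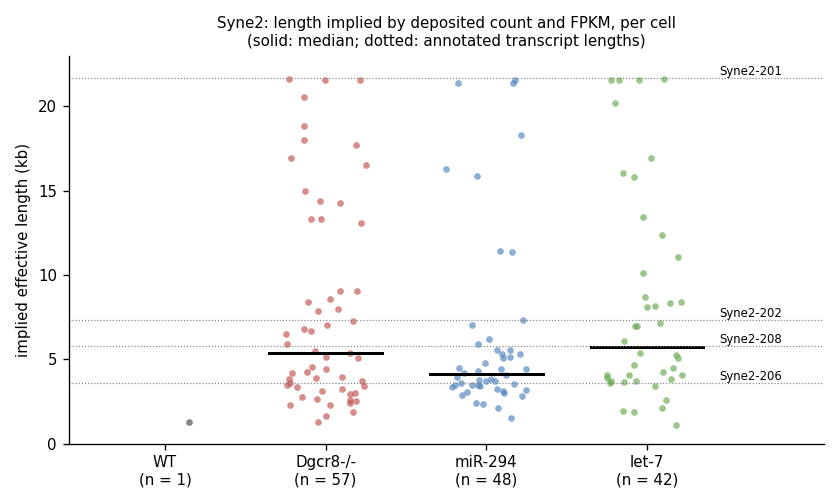
Each point is a cell with at least 10 Syne2 counts in a run, and the y axis gives the effective length in kb implied by its deposited count and FPKM. Values were averaged over the runs of a cell, which differed from each other in some cells. Black lines mark the medians of 5393 bases in Dgcr8-/-, 4143 in miR-294 and 5736 in let-7 cells, and dotted lines the lengths of 4 annotated transcripts.

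Some reads of these genes could belong to near copies. Of all stretches of 31 bases in the annotated transcripts, 27.7% in Slc39a1 and 23.6% in Slfn9 occurred in transcripts of other genes, 1.44% in Sub1 and 0.00742% in Syne2. Slc39a1-ps, which shares 26.5% of the Slc39a1 stretches, was at 0 in all cells. Slfn10-ps, which shares 14.3% with Slfn9, had 5 counts in 1 WT cell and 44 in 1 miR-294 cell, at a normalized count of 44.7, above the highest Slfn9 value of 19.5 in that condition and beside 184 Slfn9 counts over its cells, and it was at 0 in Dgcr8-/- and let-7 cells. Slfn8, which shares 13.3% with Slfn9, had 12 counts in WT and 7, 9 and 15 in Dgcr8-/-, miR-294 and let-7 cells. Of 10 schlafen genes, Slfn9 alone passed the filter.

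Sub1 was set beside 18 other general transcription factors and kinase subunits of the initiation machinery. Of the 19 genes, 0 were at least 2-fold higher and 2, Sub1 and Ercc3, at least 2-fold lower in Dgcr8-/- than in WT cells, where 30.2% and 8.73% of all genes were, and the list's median log2 ratio was -0.03 against 0.35 for all genes (with library size 3 were lower, at a median of -0.24). Ercc3, a helicase of TFIIH, had means of 186 in WT, 61.7 in Dgcr8-/-, 71.8 in miR-294 and 70.7 in let-7 cells. Ercc2 alone passed 2-fold after a mimic, lower after miR-294 with means below 20 throughout. Among 6 other proteins that bind single-stranded DNA, Nabp1 and Nabp2 were at least 2-fold higher in Dgcr8-/- cells with either scaling, and Nabp2, a subunit of the SOSS complex of DNA repair, had means of 2.85 in WT, 10.2 in Dgcr8-/-, 19.5 in miR-294 and 21.5 in let-7 cells.

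Among 20 genes for nesprins, SUN proteins and other parts of the nuclear envelope, 15 passed the filter. Of these, 6 were at least 2-fold higher in Dgcr8-/- than in WT cells and 0 lower, where 30.2% and 8.73% of all genes were, with a median log2 ratio of 0.52 against 0.35 for all genes. The 6 include Syne2 itself, which was chosen on this contrast. Scaled by library size, 5 were higher and 2 lower. Lmna, which encodes the A-type lamins of the nuclear lamina, had means of 32.6 in WT, 230 in Dgcr8-/-, 54.96 in miR-294 and 369 in let-7 cells. Its log2 ratio to mock-transfected cells was -2.04 after miR-294 and 0.68 after let-7. Sun1, an inner membrane partner of nesprins, had 95.2 in WT and 203 in Dgcr8-/- cells. Tor1a, the ATPase torsin-1A, and its activator Tor1aip1 had 14.2 and 19.8 in WT against 51.7 and 71.8 in Dgcr8-/- cells. Syne1, the gene of nesprin-1, had 6.42 in Dgcr8-/- cells, 26.6 after let-7 and under 1 in WT.

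After miR-294, 0 of these 15 genes were at least 2-fold higher and 4 at least 2-fold lower than in mock-transfected cells (Syne2, Syne4, Lmna and Tmem43), where 4.9% and 18.7% of all genes were, with a median of -0.48 against -0.26 for all genes. With library size 3 were lower, as Syne2 was at -0.994. Tmem43, an inner nuclear membrane protein, had means of 206 in Dgcr8-/-, 82.5 in miR-294 and 382 in let-7 cells, and Syne4, the gene of nesprin-4, had 15.7, 5.09 and 21.8. After let-7, Syne1 was at least 2-fold higher and Lmnb1, a B-type lamin, at least 2-fold lower, with a mean of 6.36 against 19.7 in mock-transfected cells.

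Slc39a1 was placed among 29 zinc transporters, metallothioneins and their regulator Mtf1, of which 20 passed the filter. In Dgcr8-/- against WT cells, 8 were at least 2-fold higher and 4 lower, where 30.2% and 8.73% of all genes were, with a median of 0.60 against 0.35 for all genes, and scaled by library size the numbers were 7 and 5. The 8 include Slc39a1 itself, which was chosen on this contrast. The metallothioneins Mt1 and Mt2, which bind zinc in the cytosol, had 310 and 124.5 in WT, 1676 and 385 in Dgcr8-/-, 1094 and 332 in miR-294, and 2271 and 647 in let-7 cells. Mtf1, the factor that turns these genes on when zinc is plentiful, had 14.4, 34.8, 16.2 and 39.5 in the same order. The other genes of the importer family at least 2-fold higher were Slc39a9 and Slc39a14, both with a log2 ratio of 1.17, and the exporters Slc30a3 and Slc30a4 were so from levels near 0 in WT. Slc39a4, Slc39a13, Slc30a2 and Slc30a7 were at least 2-fold lower, and Slc30a2, a zinc exporter, had 50.1 in WT and 4.95 in Dgcr8-/- cells. The median of Slc30a2 was 0.42 in WT and 0 in Dgcr8-/- cells, so its WT mean came from a minority of cells.

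After miR-294, 0 of the 20 genes were at least 2-fold higher and 3 at least 2-fold lower than in mock-transfected cells, where 4.9% and 18.7% of all genes were, with Slc39a6 at 44.9 and 15.8 and Mtf1 and Slc30a2 beside it. After let-7, 4 were at least 2-fold higher and 1 lower, where 17.5% and 8.45% of all genes were. The exporters Slc30a3, Slc30a4 and Slc30a9 had means of 3.54, 1.92 and 19.7 in mock-transfected and 49.6, 26 and 73.03 in let-7 cells, and the transporter Slc39a13 had 4.07 and 40.8. In let-7 against miR-294 cells, 11 of the 20 were at least 2-fold higher and 0 lower, where 31.2% and 6.89% of all genes were, with a median of 1.07 against 0.46 for all genes, whereas scaling by library size left 6 higher and 1 lower.

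**Figure D5:**
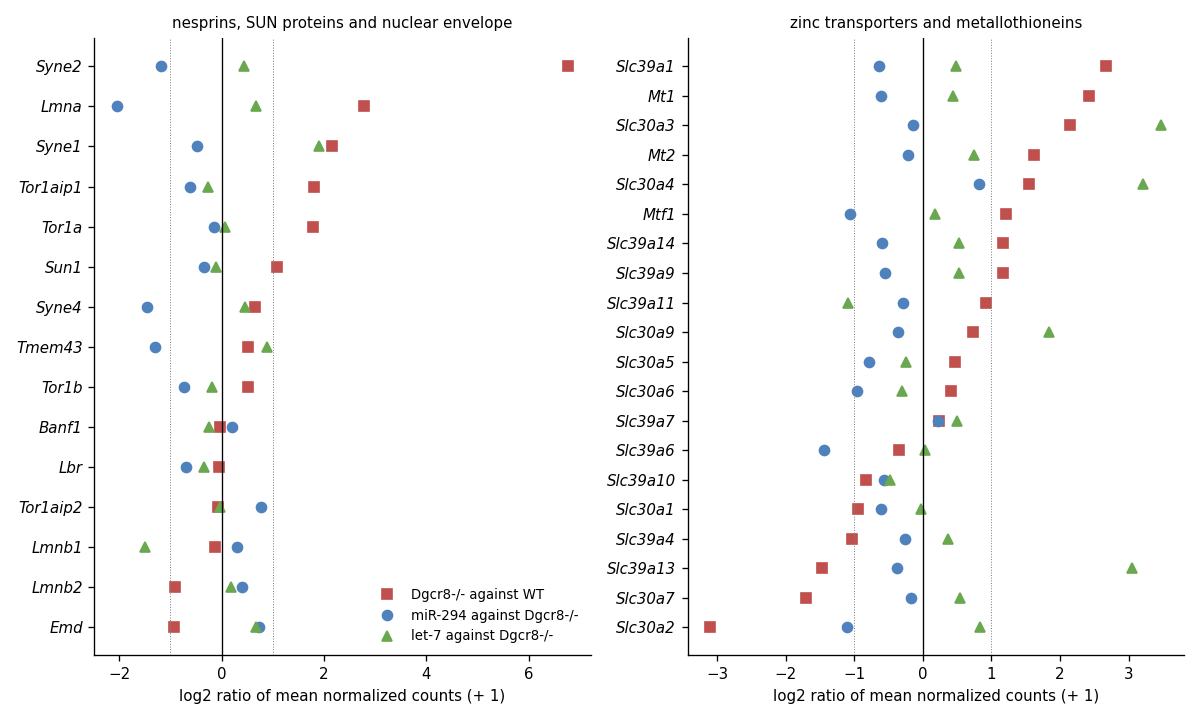
Points give the log2 ratio of mean normalized counts of each gene past the filter in the nuclear envelope list (15 genes) and the zinc list (20 genes), for Dgcr8-/- against WT and for each mimic against Dgcr8-/- (dotted lines: 2-fold). Syne2 and Slc39a1, which were chosen on this contrast, have the highest ratio of Dgcr8-/- to WT in their lists. Lmna has the lowest ratio after miR-294 in the first list.

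The genes whose 4 condition means, on a centred log2 scale, were most like those of a member differed from it by a root mean square of 0.06 for Sub1 (Blm, Ndor1 and Harbi1) and of 0.04 to 0.06 for Slc39a1 (D17H6S53E, Ric8a and Mfn2). For Syne2 they were Casq2 at 0.03, Gm37320 at 0.33 and Tspan1 at 0.41, and for Slfn9 Fmr1nb at 0.30, Slc30a2 at 0.36 and Stx2 at 0.44. The median over cells was 0 in each condition for Harbi1, Gm37320 and Stx2, and for Mfn2 in all but let-7 cells, where it was 0.97. Fmr1nb and Slc30a2 had a median of 0 in each knockout condition, and of 54.65 and 0.42 in WT cells. Casq2 had a mean of 112 but a median of 14.2 in Dgcr8-/- cells.

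The 5 genes past the filter on each side of a member were compared in Dgcr8-/- against WT cells, where 30.2% of all genes were at least 2-fold higher and 8.73% lower. Beside Sub1, 4 of 10 neighbours were higher (4930556M19Rik, Amacr, Npr3 and Pdzd2) and 0 lower, with Npr3, the nearest on its side, at a mean of 0.636 in WT and 39.6 in Dgcr8-/- cells. Beside Syne2, Sgpp1, Akap5 and Zbtb1 were higher and Wdr89 lower. Nup210l, Rab13 and Slc27a3 were higher and Creb3l4 lower beside Slc39a1. Slfn9 had Lig3, AI662270 and Ap2b1 higher and Rad51d, AA465934 and Taf15 lower.

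For scale, Anxa2 and Atp5g3, listed with the 4 members in the earlier comparison, had log2 ratios of 5.13 and -1.45 in Dgcr8-/- against WT cells. Anxa2, a membrane-binding annexin, had means of 47.96 in WT, 1713 in Dgcr8-/-, 907 in miR-294 and 2578 in let-7 cells. Atp5g3, a subunit of mitochondrial ATP synthase, had 1077, 393, 373 and 406, so that the 3 knockout conditions lay between 373 and 406. On a scale per transcript length, mean FPKM in Dgcr8-/- cells was 200 for Sub1, 45.1 for Syne2, 44.2 for Slc39a1 and 0.751 for Slfn9.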

How the data were processed

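Single-cell mRNA libraries were prepared on the Fluidigm C1 with Nextera XT. Per the labels and the study's methods, RSEM 1.2.19 with Gencode M4 was run by the authors, who deposited a raw expected count and an FPKM (per length and depth) of each gene in each run. Expected counts from runs of 1 cell were added up and rounded here. The FPKM values were averaged over runs and used for 1 alternative setting and for implied lengths, the length at which a run's count and total give its FPKM. Of 42493 gene IDs, 41674 matched a symbol. The authors had removed cells with few or uneven reads and mimic-treated cells without evidence of the mimic, so mimic conditions were selected on their response.

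A gene was kept where its mean count reached 5. Counts were divided by median-of-ratios size factors over the 862 genes with a count in all cells, near-identical libraries were averaged, and a level is the mean over cells. Log2 ratios used a pseudocount of 1. With 1 chip for each condition there were no replicates and no test. Depth ranged from 513521 to 3979274 counts for each cell, intervals are at 95% and cover counting error only. The members and gene lists were chosen with earlier results of these data known, and the AUC of 0.9, the 25% share inside the WT range and the length of 10000 bases were chosen after values had been seen. Genes named are the members, list members past 2-fold, mostly with a mean of at least 20 in a condition, the 3 genes most alike in condition means and flanking genes past 2-fold. Some named list members, such as Syne4 after miR-294 and Lmnb1 after let-7, were below 20 in both conditions compared. Ercc2 and Nabp1 were added after their values had been seen. Positions, 3′ UTRs and transcripts came from Gencode M21, on the same build, GRCm38, as M4. Python 3.11.15, numpy 2.4.6, scipy 1.17.1 and pandas 2.3.3 were used, with TMM factors from edgeR 4.0.16 in R 4.3.3. Scaling, ratios and AUC were tested on simulated data. Another 10 settings were tried, and 3 more were added after seeing the data.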

Additional observations from a re-analysis of the deposited data

How the results depend on the processing

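Most of the members' log2 ratios moved by less than the spread over cells under each alternative run (scaling by library size or TMM, a pseudocount of 0.1, FPKM, medians, summed counts, the first run alone, cells thinned to 500000 counts, the extreme cells left out, the 3 cells titled MIR_294 left out and, added after seeing the data, near-identical libraries counted singly, the 2 cells with unlike runs left out and the 2 WT cells highest in Slfn9 left out). Dgcr8-/- against WT ran from -2.04 to -1.72 for Sub1, from 4.64 to 7.84 for Syne2 and from 2.23 to 2.75 for Slc39a1. Slfn9 depended on the 2 WT cells. With medians its ratio was -0.53 for Dgcr8-/-, -1.28 for miR-294 and 0.38 for let-7 against WT, the last with a changed sign, and without the 2 cells -0.37, -1.39 and -0.064. With FPKM, Syne2 against WT was 4.64 in Dgcr8-/- and 4.89 in let-7 cells. The WT mean of Syne2 was 0.856 FPKM, below the pseudocount of 1, which pulls both ratios toward 0. Any further cause was not tested. Without the filter on mean count, 4191 genes were past 2-fold in miR-294 and 5130 in let-7 against Dgcr8-/-, 7942 in let-7 against WT and 6551 in let-7 against miR-294, against 2637, 2908, 5274 and 4263 with it. With 1 chip for each condition, 16 WT cells and a WT Syne2 total of 30 counts, differences between conditions have no replicate check. No paired analysis was possible because each condition was 1 chip and cell numbers name capture sites.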

Other observations

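The 48 cells with 2 alike runs show how well a second sequencing of the same library repeats the members. In the 23 Dgcr8-/- cells among them, the median absolute difference between runs, in log2 of counts scaled to the run total, was 0.16 for Sub1, 0.14 for Syne2, 0.28 for Slc39a1 and 0.92 for Slfn9. The SD over all Dgcr8-/- cells on the log2 scale was 0.99, 2.02, 1.01 and 1.39.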
